A study of Mus musculus with 4 samples.

Results

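The genes described here encode the proteins of the mitochondrial ribosome, and they were taken as every gene symbol of the expression matrices that begins with Mrpl or Mrps followed by a number, pseudogene symbols left out. The rule found 77 of 24421 genes, 48 named for the large subunit (Mrpl) and 29 for the small subunit (Mrps), and it used no measured value. Expression had been measured by RNA-seq in the epididymal adipose tissue of wild-type (WT) male C57BL/6J mice, a visceral fat depot. Control mice (Ctrl) were put on a high-fat diet (HFD) at 10 weeks of age and kept on it for 14 weeks without a break. Weight-cycling mice (WC1) started HFD at 8 weeks of age, ate it for 8 weeks, went back to standard diet for 2 weeks and returned to HFD for another 6 weeks. Both groups were thus obese mice with 14 weeks of HFD behind them and an age of 24 weeks at sampling, and neither was a lean reference. The comparison asks how a transient return to standard diet changes the tissue when total HFD exposure is the same. There were 2 libraries per group, and the labels do not say whether they came from separate mice, so p-values measure only the spread between these libraries, which may be technical.

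The mitochondrial ribosome (mitoribosome) stands in the mitochondrial matrix and translates the messenger RNAs transcribed from mitochondrial DNA, which encode core subunits of the respiratory chain and ATP synthase. Its RNAs come from mitochondrial DNA, whereas all its proteins are encoded in the nucleus, made by cytosolic ribosomes and imported. In adipocytes, mitochondria oxidise fatty acids and branched-chain amino acids and supply acetyl groups for fat synthesis, and the mitoribosome is needed to maintain their respiratory chain.

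The libraries held between 61465029 and 90965297 reads, and 3 reads corresponded to 0.0345 to 0.0492 CPM (the deposited signal, proportional to reads). All 77 members passed the filter of at least 0.5 CPM in at least 2 libraries, which 14106 genes passed. The cell markers of the tissue differed between the groups. All 8 adipocyte markers had higher values in WC1, 6 past the threshold, and their summed level was 9690 and 10849 CPM in Ctrl against 17524 and 22599 CPM in WC1. Of 8 macrophage markers, 3 were called lower, with a summed level of 10435 and 9435 CPM in Ctrl against 6036 and 4201 CPM in WC1, and 4 of 5 endothelial markers were called higher. Of 5 fibroblast markers, 3 were called lower. Mesothelial (4), T and NK cell (4) and B cell (3) markers had 0 calls by limma, with 0, 0 and 1 at an unadjusted p under 0.05; the summed B cell level was 20.9 CPM in WC1 library 2 and at most 3.95 CPM elsewhere. Of 3 brown adipocyte markers, 2 passed the filter, both with higher values in WC1 (0.62 and 0.98 as log2 differences, 1 called), and the 3 together summed to at most 5.80 CPM. Of 4 skeletal muscle markers, 1 passed and was called higher (Acta1, 1.18), and the 4 together summed to 6.08 and 8.52 CPM in Ctrl against 17.6 and 17.2 CPM in WC1. No marker of the epididymis passed the filter, and 3 of the 4 were at 0 in every library. In bulk tissue, fewer cells of a type and less RNA per cell cannot be told apart, and the part of cell composition in the values below was not tested.

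The mitoribosome genes as a family differed little between WC1 and Ctrl. Differences are WC1 minus Ctrl on the log2(CPM + 1) scale, from a limma fit over all 14106 genes, and a gene is called when its Benjamini-Hochberg adjusted p over all of them is under 0.05. The median difference of the 77 members was -0.02, and 33 lay above 0 and 44 below. The median over all genes tested was -0.02 as well. The members were spread over a narrower range, with quartiles of -0.15 and 0.06 against -0.21 and 0.21 over all genes and an SD of 0.166 against 0.456. The smallest and largest differences of a member were -0.45 and 0.63.

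Of the 77 members, 1 was called higher in WC1 (Mrps6) and 2 were called lower (Mrpl23 and Mrpl33), which is 3.90% of the family. Over all genes tested, 17.9% were called, 10.2% higher and 7.71% lower. At an unadjusted p under 0.05 there were 16 members, or 20.8%, against 37.8% of all genes. The values of the groups did not overlap for 48 members, 18 higher and 30 lower in WC1, or 62.3% against 69.3% of all genes, a share near the background. By direction it was 23.4% higher and 39.0% lower, against 32.7% and 36.6% of all genes. Of those 48, 45 were not called. Without Ctrl library 1 or Ctrl library 2, 0 members were called by limma, against 0.043% and 0.085% of all genes. Without WC1 library 1, 2 were called higher and 8 lower, against 36.7% of all genes, and without WC1 library 2, 1 higher and 2 lower, against 18.8%.

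**Figure D1:**
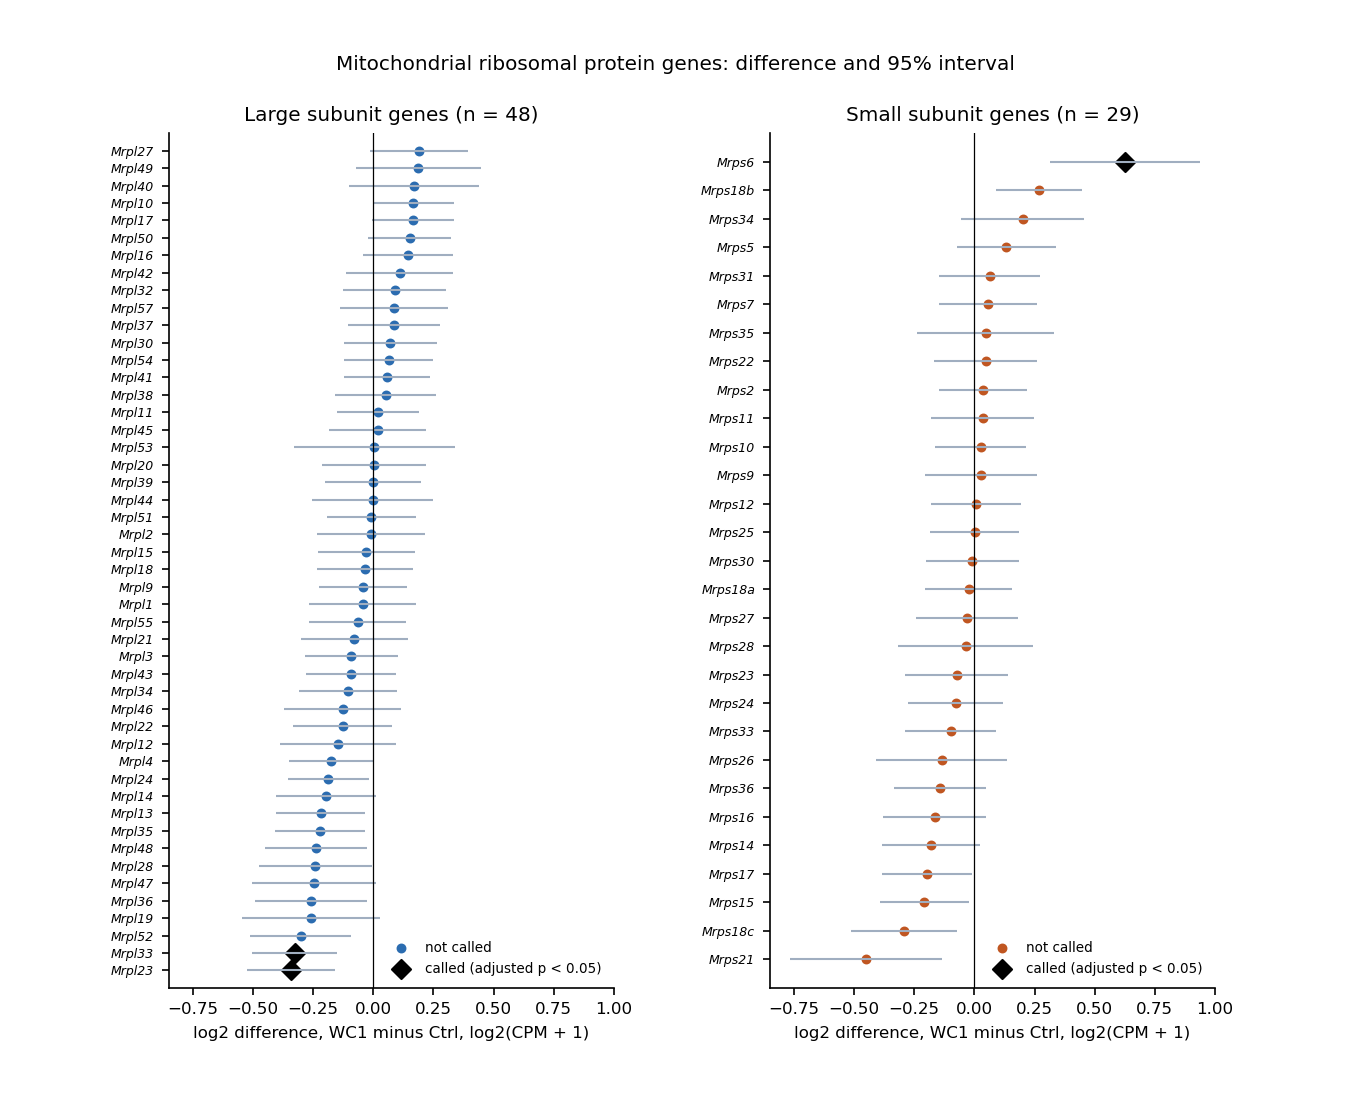
Log2 difference between WC1 and Ctrl for each of the 77 mitoribosome genes (log2(CPM + 1) scale), with 95% intervals from limma, ordered within the large (48 genes) and the small subunit (29 genes). Black diamonds mark the 3 called genes; most intervals cross 0, and the differences run from -0.45 (Mrps21) to 0.63 (Mrps6).

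The intervals show how large a difference these data leave room for. The 95% interval of the difference lay wholly within 0.5 on either side of 0 for 69 of 77 members (89.6%), against 49.5% of all genes tested. The other members were Mrpl19, Mrpl23, Mrpl33, Mrpl47, Mrpl52, Mrps6, Mrps18c and Mrps21. The median SE was 0.079 for members and 0.107 for all genes. A difference of over 0.25 in size was seen in 9 members (11.7%), against 43.2% of all genes, and one of over 0.5 in 1 member, against 18.7%. For 40 members the difference was at most 0.1 in size.

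Mrps6 encodes bS6m, a small subunit protein of bacterial origin, and it had the largest difference in the family. Its level was 72.0 and 75.1 CPM in the Ctrl libraries and 102 and 128 CPM in the WC1 libraries. Both WC1 libraries lay above both Ctrl libraries, and the WC1 libraries were further apart from each other than the Ctrl libraries were. The difference was 0.63 ± 0.12 (SE), a 1.54-fold higher level (limma adjusted p = 0.033, 95% interval 0.31 to 0.94). In the fit with no filter on low values Mrps6 was not called (limma adjusted p = 0.059). Without Ctrl library 1 or 2 the difference was 0.60 or 0.66, with an SE of 0.18 and an adjusted p of 0.22 or 0.16. Without WC1 library 1 it was 0.79 and without WC1 library 2 it was 0.46, with adjusted p of 0.0011 and 0.012.

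Mrps6 shares its start with another gene. It lies at chr16:92058270-92112227 on the plus strand (GENCODE M21, GRCm38), and Slc5a3, which encodes a sodium-coupled myo-inositol transporter that takes up this osmolyte, lies inside it on the same strand at chr16:92058322-92087473. The annotated exons of the genes overlap by 159 bases. Slc5a3 measured 54.9 and 64.1 CPM in the Ctrl libraries, 80.7 and 108 CPM in the WC1 libraries, a difference of 0.64 ± 0.16 (limma adjusted p = 0.053). The log2 ratio of Mrps6 to Slc5a3 was 0.38 and 0.23 in the Ctrl libraries, 0.33 and 0.24 in the WC1 libraries, so the groups overlapped in the ratio while both genes were higher in WC1. The sources used here do not give how reads of the shared exon were assigned, and the values of Mrps6 and Slc5a3 are uncertain to that extent. With the reads of the pair added together, the difference was 0.64 ± 0.14 (limma adjusted p = 0.041).

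The start regions of the 3 called genes are printed because they are where the family's few differing members could be compared by sequence. Each is 300 bases long, 250 before the annotated start and 50 after it, from RefSeq on GRCm38.p6, all on the plus strand: chr16:92058086-92058385 for Mrps6, chr7:142532782-142533081 for Mrpl23 and chr5:31613701-31614000 for Mrpl33. Capitals mark a match to one of the 4 motifs named in the next paragraph.
Mrps6: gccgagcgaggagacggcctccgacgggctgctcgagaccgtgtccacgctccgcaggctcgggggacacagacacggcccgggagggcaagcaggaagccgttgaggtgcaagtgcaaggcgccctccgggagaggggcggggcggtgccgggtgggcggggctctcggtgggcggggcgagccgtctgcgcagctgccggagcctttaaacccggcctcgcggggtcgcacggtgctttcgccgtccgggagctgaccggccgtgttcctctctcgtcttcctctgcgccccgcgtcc
Mrpl23: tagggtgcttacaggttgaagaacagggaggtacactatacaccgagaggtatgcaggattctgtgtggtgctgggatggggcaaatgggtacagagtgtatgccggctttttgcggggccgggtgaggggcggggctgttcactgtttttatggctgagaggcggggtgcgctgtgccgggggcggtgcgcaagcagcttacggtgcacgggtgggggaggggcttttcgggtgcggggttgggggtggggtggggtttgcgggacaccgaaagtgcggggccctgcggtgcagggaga
Mrpl33: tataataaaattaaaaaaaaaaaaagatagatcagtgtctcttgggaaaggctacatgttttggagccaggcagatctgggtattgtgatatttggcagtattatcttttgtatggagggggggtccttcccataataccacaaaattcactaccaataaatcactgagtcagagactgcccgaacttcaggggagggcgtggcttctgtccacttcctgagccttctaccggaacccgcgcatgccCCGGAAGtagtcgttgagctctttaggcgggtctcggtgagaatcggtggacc
The window of Slc5a3 in the same table shares 286 of its bases with that of Mrps6. The Mrps6 window has a GC content of 73.7% and the Mrpl23 window 63.3%, and neither holds any of the 4 motifs. The Mrpl33 window has a GC content of 47.0% and holds 1 ETS motif, beginning 3 bases before the start.

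Mitoribosome promoters are known for binding sites of the nuclear respiratory factors, ETS factors and YY1. Of the 77 members, 68 had a RefSeq window (74 windows, since some have several starts), and 4 motifs were searched on both strands. The ETS motif CCGGAAG was in 33.8% of the members' windows, against 8.86% of the windows of all genes and 15.9% of those of the genes tested. The NRF1 motif, GCGC followed after 2 bases of any kind by GCGC, was in 18.9%, against 6.23% and 12.0%. The YY1 motif AAGATGG was in 17.6%, against 6.34% and 6.79%. The E-box CACGTG was in 9.46%, against 7.15% and 9.60%. The windows of Mrpl2 overlap and hold the same E-box, which was counted once per window. At least 1 of the 4 was in 63.5% of the members' windows, against 24.5% of all windows and 36.6% of those of tested genes, at a median GC content of 58.5%, 52.7% and 60.3%. The ETS motif was in 14 of 47 large subunit and 11 of 27 small subunit windows, and the NRF1 motif was in 11 and 3. A match to these letters is a description of the sequence and does not show binding.

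Mrpl23 and Mrpl33 were the called members with lower levels in WC1, both of the large subunit. Mrpl23 encodes uL23m, which lies at the exit of the tunnel through which the nascent chain leaves. It lies at chr7:142532686-142540747 on the plus strand and measured 35.9 and 35.1 CPM in the Ctrl libraries, 28.2 and 27.4 CPM in the WC1 libraries. The gap between the groups was several times the gap within either. The difference was -0.34 ± 0.07 (limma adjusted p = 0.038), which is 0.789 of the Ctrl level. Mrpl33, at chr5:31596935-31664384 on the plus strand, encodes bL33m, a short protein of bacterial origin. It measured 48.6 and 47.2 CPM in the Ctrl libraries, 38.6 and 37.3 CPM in the WC1 libraries. Again the libraries of a group were close together and the groups did not overlap, with a difference of -0.33 ± 0.07 (limma adjusted p = 0.038). Without Ctrl library 1 or 2 the difference of Mrpl23 was -0.33 or -0.36, with an SE of 0.12 and an adjusted p of 0.27 or 0.20. That of Mrpl33 was -0.31 or -0.35, with an SE of 0.11 and an adjusted p of 0.27 or 0.20. On the TPM matrix, where reads are corrected for length and every library is scaled to the same sum, the differences were -0.21 for Mrpl23 and -0.19 for Mrpl33 on the log2(TPM + 1) scale, with adjusted p of 0.070 and 0.090. Relative to the median of all genes they were -0.31 and -0.30 there, beside -0.32 and -0.31 on the CPM scale. Both genes were also called lower with median-of-ratios scaling, with quantile normalization, by edgeR and by DESeq2, with adjusted p between 0.013 and 0.041. Without the filter on low values neither was called (adjusted p = 0.053 and 0.052).

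The scale itself moved every member. In the TPM matrix the median difference was larger by 0.12 over all genes tested and by 0.14 over the members. The median difference of the members became 0.12 beside 0.10 for all genes. With TPM, 55 members lay above 0. On that scale 4 members were called higher, namely Mrps6, Mrps18b, Mrpl10 and Mrpl16, and 0 lower (limma), against 18.7% of all genes called. With the reads recovered from the CPM values, edgeR called 2 members higher and 2 lower, against 17.6% of all genes, and DESeq2 called 2 higher and 4 lower, against 27.4%. The higher level of Mrps6 was called by each of these. Relative to the median of all genes, the median of the members was -0.0041 on the CPM scale and 0.014 on the TPM scale.

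**Figure D2:**
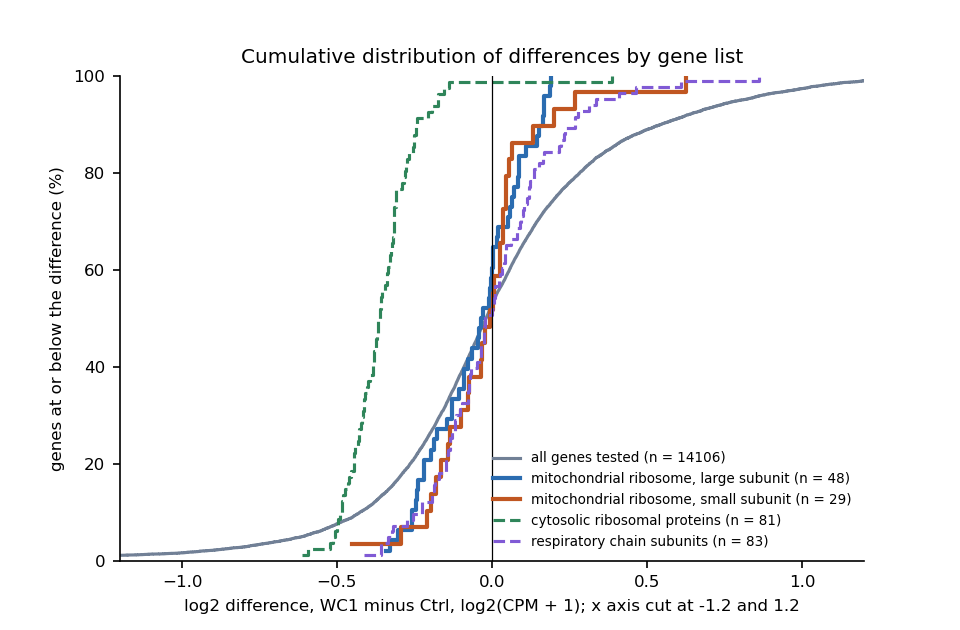
Cumulative share of genes (percent) at or below each log2 difference between WC1 and Ctrl for the large and small mitoribosome subunits, cytosolic ribosomal proteins, respiratory chain subunits and all 14106 genes tested. The curves of both mitoribosome subunits are steep around 0, and the curve of the cytosolic ribosomal proteins lies to the left, around its median of -0.36.

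The large and the small subunit were then compared. The median difference was -0.03 over the 48 large subunit genes, with quartiles of -0.18 and 0.07 and a range of -0.34 to 0.19. Over the 29 small subunit genes it was -0.01, with quartiles of -0.14 and 0.05 and a range of -0.45 to 0.63. Above 0 lay 19 large and 14 small subunit genes. The large subunit had 2 calls (4.17%), both lower, with 10 genes whose unadjusted p was under 0.05, and the small subunit had 1 call (3.45%), higher, and 6 such genes, against 17.9% of all genes called. The groups did not overlap for 32 large subunit genes, 11 higher and 21 lower, and for 16 small subunit genes, 7 higher and 9 lower. These are 66.7% and 55.2% of the subunits, against 69.3% of all genes. The medians of the subunits differed by -0.025 (large minus small). The large minus small median level had an SD of 0.044 between libraries of 1 group. That is a spread of levels and does not size the difference within genes. The deviation of each gene from its own mean over the 4 libraries was also taken. Its median in Ctrl 1, Ctrl 2, WC1 1 and WC1 2 was 0.043, 0.021, -0.015 and -0.029 for the large subunit. For the small subunit it was 0.0055, 0.0059, -0.012 and -0.018. Both of the family's extremes were small subunit genes. On the TPM matrix the median was 0.11 for the large and 0.13 for the small subunit, beside 0.10 over all genes. There 34 large and 21 small subunit genes lay above 0. On that scale limma called 2 genes of each subunit higher and 0 lower, against 18.7% of all genes called.

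Per length, the levels of the subunits were close. The median level was 55.7, 57.0, 57.5 and 61.3 TPM for large subunit genes in Ctrl 1, Ctrl 2, WC1 1 and WC1 2, and 55.1, 52.4, 51.9 and 62.3 TPM for small subunit genes. The ratio of summed TPM, large over small, was 2.00 and 2.01 in the Ctrl libraries, 1.91 and 1.86 in the WC1 libraries. The groups did not overlap in that ratio, and the small subunit sum contains Mrps6, whose TPM was 176 and 186 in the Ctrl libraries, 272 and 353 in the WC1 libraries. All 77 genes together summed to 5019 and 5036 TPM in the Ctrl libraries, 5247 and 5575 TPM in the WC1 libraries, and the groups did not overlap. Their summed CPM was 2667 and 2646 in the Ctrl libraries, 2597 and 2659 in the WC1 libraries, and the groups overlapped.

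Symbols do not give the subunit in every case. Mrps18a (mL66) and Mrps30 (mL65) are named for the small subunit but sit in the large subunit of mammals, and Mrps36 is now known as a component of the 2-oxoglutarate dehydrogenase complex. With members placed by structure and Mrps36 left out, the large subunit had 50 genes and a median difference of -0.03, and the small subunit had 26 genes and a median of 0.0049. Mrps30 had a difference of -0.01 and Mrps36 one of -0.14, and neither was called.

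The paralogs Mrps18a, Mrps18b and Mrps18c are relatives of the same bacterial protein, and none was called on the CPM scale by limma with all 4 libraries. Mrps18b, which encodes the small subunit protein mS40, measured 32.1 and 31.1 CPM in the Ctrl libraries, 38.2 and 38.3 CPM in the WC1 libraries. Mrps18c, which encodes bS18m, measured 23.0 and 22.2 CPM in the Ctrl libraries, 19.0 and 17.6 CPM in the WC1 libraries. Mrps18a measured 36.1 and 36.1 CPM in the Ctrl libraries, 34.7 and 36.3 CPM in the WC1 libraries. The values of Mrps18b were higher in both WC1 libraries, those of Mrps18c were lower in both, and those of Mrps18a overlapped. The differences were 0.27 ± 0.07, -0.29 ± 0.09 and -0.02 (limma adjusted p = 0.057, 0.074 and 0.84). Mrps18b was past the threshold on the TPM scale (0.41, adjusted p = 0.025), with median-of-ratios scaling (0.29, 0.0499), by edgeR (0.29, 0.041) and by DESeq2 (0.30, 0.030). The log2 ratio of Mrps18b to Mrps18c was 0.46 and 0.47 in the Ctrl libraries, 0.97 and 1.08 in the WC1 libraries, a difference of 0.56. The exact permutation test gave p = 0.333 for it, the smallest value that 2 libraries against 2 allow.

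**Figure D3:**
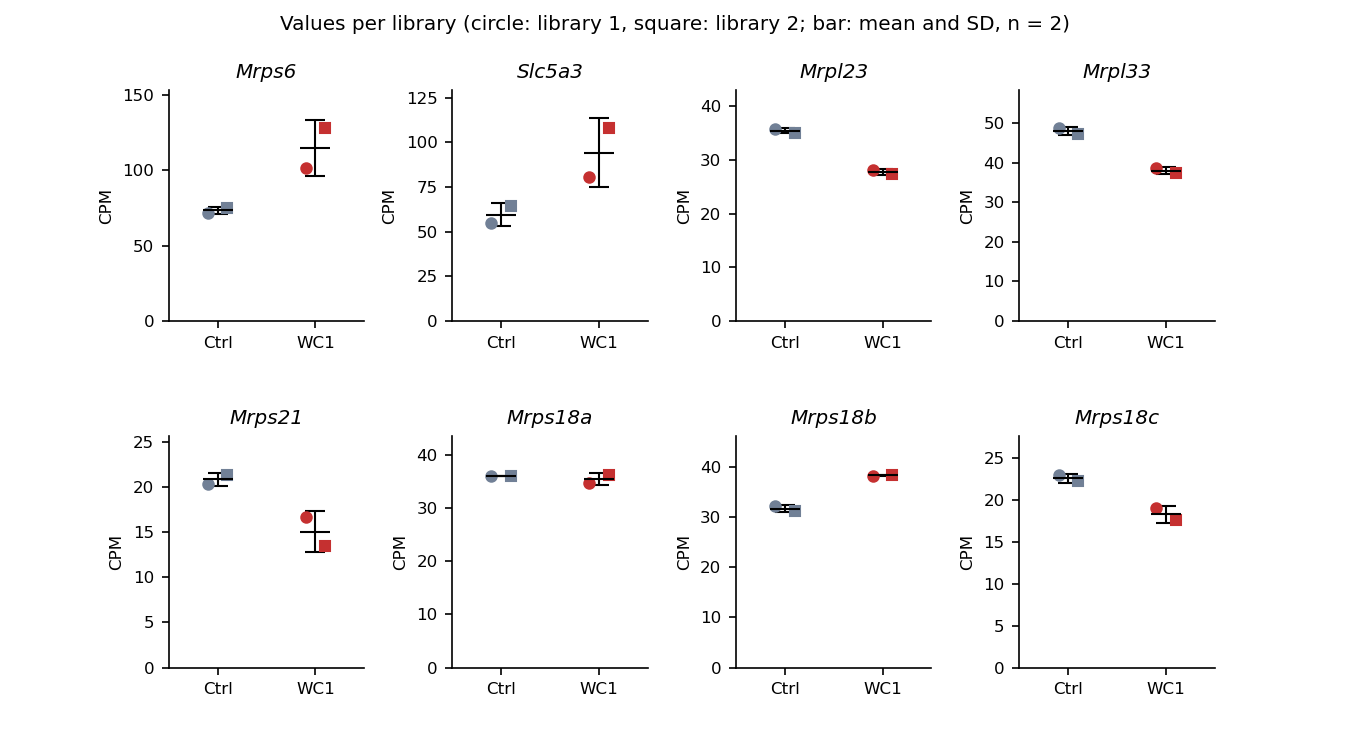
CPM per library for Mrps6, its overlapping gene Slc5a3, Mrpl23, Mrpl33, Mrps21 and the Mrps18 paralogs (circle for library 1, square for library 2, bar for the mean and SD of 2 libraries, axes from 0). Mrps6 runs from 72.0 to 75.1 CPM in Ctrl and from 102 to 128 CPM in WC1, and the Mrps18a values of the groups overlap.

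The largest decrease in the family was not called by limma with all 4 libraries. Mrps21, which encodes bS21m, measured 20.4 and 21.4 CPM in the Ctrl libraries, 16.7 and 13.5 CPM in the WC1 libraries. The WC1 libraries differed from each other by about as much as the nearer one differed from Ctrl. The difference was -0.45 ± 0.12 (limma adjusted p = 0.064), and DESeq2 gave -0.45 (adjusted p = 0.021). Without WC1 library 1 the limma difference was -0.60, and without WC1 library 2 it was -0.31. Mrpl52, a large subunit protein without a bacterial counterpart, was chosen after its values were seen, since DESeq2 also called it. It measured 35.9 and 34.9 CPM in the Ctrl libraries, 29.8 and 27.2 CPM in the WC1 libraries, a difference of -0.30 (limma adjusted p = 0.062).

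Mitoribosome proteins fall into classes by ancestry. Universal proteins have counterparts in bacteria and in the cytosolic ribosome, bacterial-type proteins have them in bacteria only, and proteins of the mitochondria-specific class hold places in the mitoribosome for which neither has a counterpart. Mrps18a and Mrps18b were put in the last class by that place, although they are related in sequence to a bacterial protein. The 27 universal members had a median difference of -0.04, with 11 above 0 and 1 called (Mrpl23). The 19 bacterial-type members had a median of -0.11, with 5 above 0 and 2 called (Mrps6 and Mrpl33). The 30 mitochondria-specific members had a median of 0.01, with 17 above 0 and 0 called by limma on the deposited CPM with all 4 libraries. On the CPM scale the shares called were 3.70%, 10.5% and 0%, against 17.9% of all genes. On the TPM scale the calls by limma were Mrpl10 and Mrpl16 (universal), Mrps6 (bacterial-type) and Mrps18b (mitochondria-specific), against 18.7% of all genes. Of the mitochondria-specific genes, 3 passed at an unadjusted p under 0.05. Limma with median-of-ratios scaling and edgeR called Mrps18b, and DESeq2 called Mrps18b and Mrpl52. The groups did not overlap for 84.2% of bacterial-type, 66.7% of universal and 43.3% of mitochondria-specific genes, against 69.3% of all genes tested. The bacterial-type genes thus had the lowest median and held both the highest and the lowest member, Mrps6 and Mrps21.

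The classes also differed in transcript length. Length was taken from the ratio of CPM to TPM and is given relative to the median tested gene. The median relative length was 0.373 over the members, 0.275 over the bacterial-type, 0.372 over the universal and 0.455 over the mitochondria-specific genes. Longer members had higher differences, with a Spearman correlation of 0.30 across the 77 members, against 0.13 across all 14106 genes, as a description across genes of the same libraries. Within the classes it was 0.25 for bacterial-type, 0.44 for universal and 0.21 for mitochondria-specific genes. The part of length in the class medians was not tested.

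**Figure D4:**
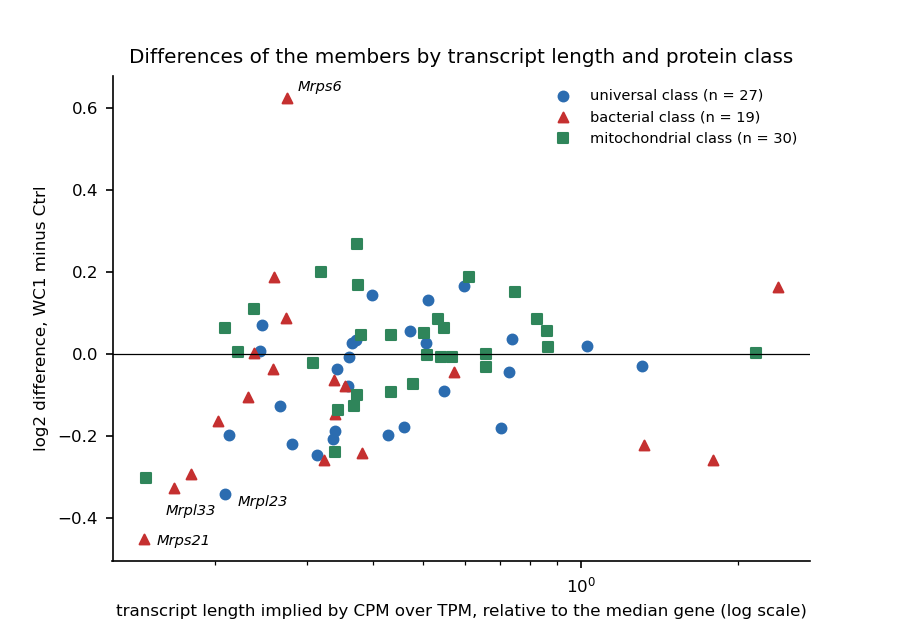
Log2 difference between WC1 and Ctrl (log2(CPM + 1) scale) against the transcript length implied by CPM over TPM, relative to the median tested gene (log axis), for 76 members by protein class, Mrps36 left out. Short genes spread from -0.45 (Mrps21) to 0.63 (Mrps6), and most bacterial-type genes lie below 0.

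The levels of the members, compared per length, covered a 19.6-fold range of Ctrl means. The highest large subunit genes by the mean over all 4 libraries were Mrpl20, Mrpl33 and Mrpl42, although in Ctrl the mean of Mrpl52 (164.9 TPM) was above that of Mrpl42 (161.8 TPM). Mrpl20 stood at 211, 202, 212 and 246 TPM in Ctrl 1, Ctrl 2, WC1 1 and WC1 2. Mrpl33 stood at 199, 195, 173 and 172 TPM, and Mrpl42 at 151, 172, 194 and 190 TPM. Mrpl20 and Mrpl33 lay close together in Ctrl, with Mrpl42 below them, whereas in WC1 Mrpl33 lay below both others. Mrpl19, Mrpl35 and Mrpl17 were the lowest large subunit genes. Mrpl19, whose protein is bL19m, stood at 11.0, 10.1, 10.3 and 9.02 TPM. Mrpl35 stood at 14.7, 14.8, 13.8 and 14.0 TPM, and Mrpl17 at 13.1, 13.2, 15.7 and 16.8 TPM. The order of Mrpl35 and Mrpl17 was therefore reversed between the groups. Their differences on the log2(CPM + 1) scale were -0.22 and 0.16, and neither was called (limma adjusted p = 0.095 and 0.14).

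Among small subunit genes, Mrps6, Mrps15 and Mrps21 had the highest means over all 4 libraries. Mrps21 was the second in Ctrl (98.4 TPM, with Mrps15 at 96.5 TPM), whereas in WC1 its mean of 78.3 TPM lay below those of Mrps7 (88.0 TPM) and Mrps18a (87.1 TPM) too. Mrps15, a universal protein (uS15m), stood at 92.8, 100, 90.6 and 92.9 TPM in Ctrl 1, Ctrl 2, WC1 1 and WC1 2. Mrps21 stood at 95.6, 101, 85.4 and 71.2 TPM. The pair were thus at like levels in Ctrl, and in WC1 they were clearly apart in library 2 only. The lowest by the same mean were Mrps25, Mrps31 and Mrps27, all mitochondria-specific. Mrps25 stood at 12.1, 12.3, 13.6 and 13.2 TPM, Mrps27 at 20.7, 22.3, 23.0 and 23.3 TPM, and Mrps31 at 19.9, 20.5, 22.8 and 23.9 TPM. The values of Mrps27 and Mrps31 overlapped in WC1, and in Ctrl those of Mrps27 lay just above those of Mrps31. On the log2(CPM + 1) scale the differences of Mrps25, Mrps27 and Mrps31 were 0.0018, -0.03 and 0.06.

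**Figure D5:**
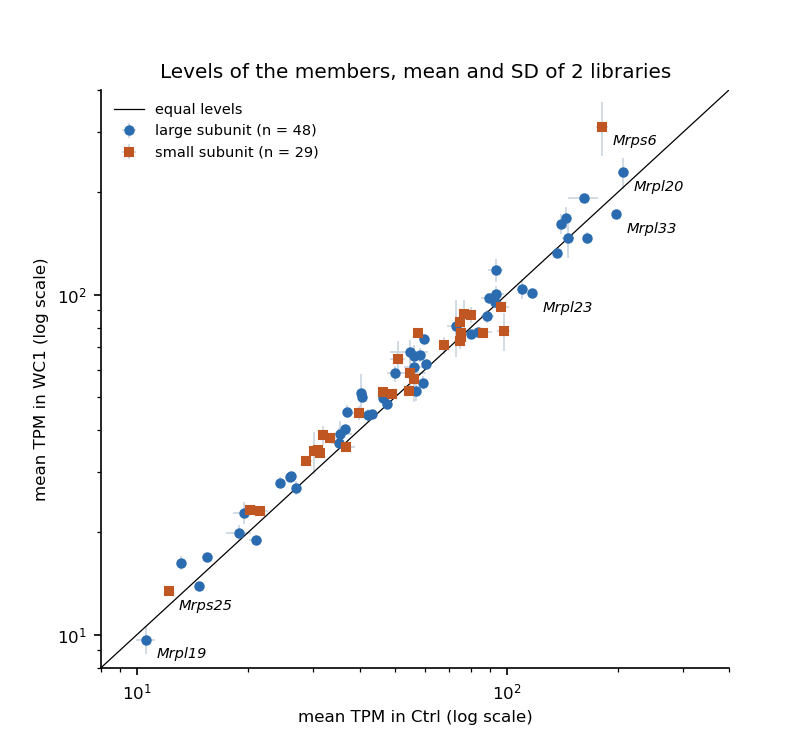
Mean level of each of the 77 members in WC1 (vertical axis) against Ctrl (horizontal axis), in TPM on log axes, with the SD of 2 libraries as bars, circles for the large and squares for the small subunit, and a line where both levels are equal. The means run from 9.67 TPM (Mrpl19, WC1) to 312 TPM (Mrps6, WC1), and most points lie near the line.

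Some members cannot be read separately from a neighbour. All 77 were found in GENCODE M21, on 17 chromosomes, and 32 had an exon that overlapped an exon of another gene, 27 of them on the opposite strand and 8 on the same strand. The libraries were directional, but the sources used here do not say whether counting used the strand, and without it reads of opposite genes cannot be told apart. A same-strand partner listed in the matrix was found for Mrps6 (Slc5a3), Mrps24 (Urgcp), Mrps34 (Nme3) and Mrpl51 (a microRNA). Urgcp, a cell cycle gene, overlaps Mrps24 by 226 bases and had a called difference of 2.11, while Mrps24 had one of -0.08. Of 5 annotated pseudogenes named after members, 0 were in the matrix, and how their reads were assigned is not known.

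Other genes of mitochondrial translation were read against the same background of 17.9% of all genes called and 37.8% at an unadjusted p under 0.05. A list of 5 mitoribosome proteins with other symbols had 0 calls by limma, edgeR or DESeq2, a list too short to be set against that share, and 1 of them passed at an unadjusted p under 0.05. Their differences were 0.24 for Ptcd3, 0.16 for Dap3, -0.12 for Chchd1, -0.12 for Aurkaip1 and -0.13 for Gadd45gip1, and the last of these belongs to the large subunit. Ict1, an older symbol of Mrpl58, was looked up after values were seen and had a difference of -0.10 (limma adjusted p = 0.39). Of 24 mitoribosome assembly factors, 0 were called with all 4 libraries by limma on the CPM scale, edgeR or DESeq2. By limma 3 passed at an unadjusted p under 0.05, with a median difference of 0.02. On the TPM scale limma called 1, against 18.7% of all genes. Among them Mettl17, an assembly factor of the small subunit, had a difference of -0.32 (limma adjusted p = 0.086), and Mettl15, a methyltransferase of the small subunit RNA, one of 0.31 (adjusted p = 0.12).

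Of 16 mitochondrial translation factors and messenger RNA binding proteins, 1 was called (6.25%, against 17.9% of all genes), and the median difference was -0.03. The called gene was Slirp, whose protein binds and stabilises mitochondrial messenger RNAs together with LRPPRC. Slirp measured 34.7 and 30.2 CPM in the Ctrl libraries, 23.0 and 21.8 CPM in the WC1 libraries. Its groups were apart by more than either pair of libraries, with a difference of -0.51 ± 0.10 (limma adjusted p = 0.031) and -0.39 on the log2(TPM + 1) scale (adjusted p = 0.044). In the fit with no filter on low values it was not called. Taco1, a translational activator of cytochrome c oxidase subunit I, had a difference of 0.25 (limma adjusted p = 0.14). Without Ctrl library 1 or 2 the difference of Slirp was -0.42 or -0.61 and the list had 0 calls, where 0.043% and 0.085% of all genes were called. Without WC1 library 1 the list had 3, where 36.7% of all genes were called.

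The 17 mitochondrial tRNA synthetases had a median difference of 0.08, 14 of them above 0. By limma on the CPM scale, edgeR or DESeq2, 0 were called, with 0 at an unadjusted p under 0.05 by limma. On the TPM scale limma called 1, against 18.7% of all genes. Lars2, which charges the mitochondrial leucine tRNA, had a difference of 0.19 (limma adjusted p = 0.15). Of 16 genes for mitochondrial DNA maintenance and transcription, 0 were called with all 4 libraries by limma on the CPM scale, edgeR or DESeq2. By limma 3 passed at an unadjusted p under 0.05, with a median of 0.08. On the TPM scale 1 was called, against 18.7% of all genes. Polg, the mitochondrial DNA polymerase, had a difference of 0.22 (limma adjusted p = 0.083). Ppargc1a, a coactivator that raises mitochondrial gene programmes, measured 1.43 and 1.75 CPM in the Ctrl libraries, 3.15 and 2.13 CPM in the WC1 libraries, a difference of 0.48 (limma adjusted p = 0.13). Genes encoded by mitochondrial DNA were not analysed here.

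The proteins of the cytosolic ribosome were compared as the other ribosome of the cell. Of 81 cytosolic ribosomal protein genes tested, 28 were called lower (34.6%) and 0 higher, against 7.71% of all genes called lower, with a median difference of -0.36 and 80 of them below 0, beside -0.02 and 44 of 77 for the mitoribosome. The median on the log2(TPM + 1) scale was -0.22, again with 80 below 0, and 3 were called (3.70%, against 18.7% of all genes). Relative to the median of all genes, the median of the list was -0.34 on the CPM and -0.32 on the TPM scale. Examples are Rpl38, with a difference of -0.61, and Rpl36a, with one of -0.51, both called on either scale. The list had 0 calls without Ctrl library 1 or Ctrl library 2, 73 without WC1 library 1 and 33 without WC1 library 2, beside 0.043%, 0.085%, 36.7% and 18.8% of all genes called in the same fits. The median relative length of this list was 0.252, below that of the mitoribosome genes. Of the marker sums given above, that of macrophages was lower in WC1, as this list was, and that of adipocytes was higher. The part of length or of cell composition was not tested.

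The respiratory chain subunits encoded in the nucleus lay closer to the mitoribosome. Of 83 tested, 2 were called higher and 3 lower (6.02%, against 17.9% of all genes), with a median of -0.02. Ndufb3, a subunit of complex I, had a difference of 0.61, and Cox4i2, an alternative isoform of a cytochrome c oxidase subunit, one of 0.86, and both were called. Without Ctrl library 1 or 2 the list had 0 calls, where 0.043% and 0.085% of all genes were called, and without WC1 library 1 it had 22, where 36.7% were.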

How the data were processed

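Poly(A) RNA of epididymal adipose tissue was sequenced from directional libraries, 2 per group, with groups taken from the sample titles. Per the labels, the submitters' processing notes name fastp, HISAT2 and StringTie and the build mm10; the sources used here do not give the read counter, the annotation or tool versions. The authors deposited 2 matrices of 24421 genes. The first matrix holds a deposited signal named CPM. Its columns sum to between 97.6% and 105% of the total of plain CPM. It was therefore read as the reads of a gene over a rescaled library size, and the reason for the rescaling is not given. In every library 100% of its values were whole reads to within 0.01 read. The second matrix, deposited as TPM by the authors, is corrected for length. In all, 6289 genes were at 0 in every library. Intervals and the value of 3 reads cover counting error or the spread between libraries only.

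Genes were tested where 2 libraries or more reached 0.5 CPM, after the minimum in the study's methods, on log2(CPM + 1) with limma 3.58.1 (R 4.3.3, variance trend, two-sided), adjusted by Benjamini-Hochberg over 14106 genes with a threshold of 0.05. A pseudocount of 1 understates the change of genes of low level. The TPM matrix, log2(TPM + 1), edgeR 4.0.16 (quasi-likelihood) and DESeq2 1.42.0 on the recovered reads, other scalings, filters and pseudocounts, a replicate block and the omission of each library were alternatives. Summing Mrps6 and Slc5a3 was added after seeing the data. Scripts were tested on simulated data. Positions are from GENCODE M21 (GRCm38) and start regions from RefSeq (GRCm38.p6).

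The members and the lists were chosen with earlier results of these data known. Named members are the called ones, the 3 highest and 3 lowest in mean TPM of each subunit, the Mrps18 paralogs, Mrps30 and Mrps36; of each related list, the 2 genes with the smallest p, and the 5 other mitoribosome proteins. A gene that this rule names is not reported here. Replicates were compared by a chi-square test of their reads, with 37.0 (Ctrl) and 93.5 (WC1) per degree of freedom, which 1 library deposited again would not give.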

Additional observations from a re-analysis of the deposited data

How the results depend on the processing

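Across 35 named genes with 14 alternatives each, and the sum of Mrps6 and Slc5a3, 491 values were recomputed, of which 439 kept their direction and side of the threshold, 22 lost a call, 13 gained one and 17 changed sign. Without a filter 0 members were called (Mrps6 adjusted p = 0.059), 0 translation factors, 4 cytosolic ribosomal proteins and 3 respiratory chain subunits, where 7.28% of all genes were called. On the TPM matrix 4 members were called higher and 0 lower (2 in the small subunit), the assembly, tRNA synthetase and mitochondrial DNA lists had 1 call each, cytosolic ribosomal proteins 3 and the respiratory chain 12. In that fit 18.7% of all genes were called. The medians there were 0.12 for all members, 0.11 for the large and 0.13 for the small subunit. The median of the large subunit was -0.014 with median-of-ratios scaling, -0.024 with quantile normalization, -0.016 by edgeR, -0.015 by DESeq2 and -0.026 by structure. Median-of-ratios scaling and edgeR each called 2 members higher and 2 small subunit genes, against 18.2% and 17.6% of all genes. DESeq2 called 2 members higher and 4 lower, with 3 in the small subunit. Cytosolic ribosomal protein calls were 12 with quantile normalization and 65 by DESeq2, against 17.0% and 27.4% of all genes; respiratory chain calls were 3 by edgeR and 16 by DESeq2. On the TPM matrix the sign changed for Mrps27 (0.10), Mrps18a (0.12), Mrps30 (0.13), Chchd1 (0.015), Aurkaip1 (0.021) and Gadd45gip1 (0.0028); Mrps30 was at 0.0099 with median-of-ratios scaling, 0.010 by edgeR and 0.010 by DESeq2. Leaving out 1 library gave 0 to 2 members called higher and 0 to 8 lower, 0 to 7 in the large and 0 to 3 in the small subunit, 0 to 1 for other mitoribosome proteins, assembly factors and mitochondrial DNA genes, 0 to 3 translation factors, 0 to 73 cytosolic ribosomal proteins and 0 to 22 respiratory chain subunits. The median ranged from -0.059 to -0.0021 for all members, -0.073 to -0.018 for the large and -0.023 to 0.0070 for the small subunit. The sign changed within Mrpl20 (-0.079 to 0.085), Mrps25 (-0.041 to 0.044), Mrps27 (-0.077 to 0.015), Mrps18a (-0.054 to 0.0078) and Mrps30 (-0.031 to 0.015). These fits lend the spread of the complete group to a library left alone in its group. The causes were not tested.

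The numbers 1 and 2 are shared by the groups, but nothing in the labels pairs them, and the correlation of the differences between library 1 and library 2 was 0.19 over all genes and 0.01 over the members. With a replicate block, 1 member was called higher and 2 lower, as without it, while the calls were 46 for cytosolic ribosomal proteins and 9 for respiratory chain subunits, and 23.2% of all genes were called in that fit. With 2 libraries per group, the spread between libraries, technical or not, exceeded counting error.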
